A study of Arabidopsis thaliana with 27 samples.

Results

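CUP-SHAPED COTYLEDON1 (CUC1, AT3G15170), CUC2 (AT5G53950) and CUC3 (AT1G76420) are the Arabidopsis thaliana genes whose products set the boundaries between organs and the meristem. They were taken by locus identifier from the supplied gene table, and are 3 of its 37899 nuclear loci. Each encodes a transcription factor of the NAC family. Double mutants of these genes form fused, cup-like cotyledons and lack a shoot meristem, and the genes stay active in the narrow strips of slow-growing cells around each new leaf or flower. CUC1 and CUC2 messages are cut by the microRNA miR164, whereas CUC3 lacks the target site.

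Genes used in few cells of a plant are commonly held silent elsewhere by trimethylation of lysine 27 of histone H3 (H3K27me3), which Polycomb group complexes write. REF6 (RELATIVE OF EARLY FLOWERING6) is a Jumonji-domain demethylase that removes this mark. BRAHMA (BRM) is the ATPase of a SWI/SNF complex that moves or evicts nucleosomes. The series was designed to map both proteins, each also in the mutant of the other, and the mark in plants lacking one or both.

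Chromatin immunoprecipitation and sequencing was done on whole seedlings aged 14 days, grown at 22 degrees C in 16 h of light and 8 h of dark, and each of the 17 libraries used here is represented by its list of called peaks. For H3K27me3 there were 2 libraries per genotype: WT, the wild type; brm-1, here called brm; ref6-1, called ref6; and plants with both mutations, brm-1 ref6-1, called brm ref6. REF6-GFP was mapped in 1 library with no further genotype in its label (the first library), in 2 later libraries read as wild type and in 2 in brm-1. BRM-GFP was mapped in 1 first library, 1 later library read as wild type and 2 in ref6-1, where the label of 1 names a ProBRM-BRM-GFP transgene. Whether the wild-type GFP lines carry a mutation of the tagged gene is not stated in the labels. The design also names RNA expression, which was not analysed here.

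The H3K27me3 lists held 5582 to 13079 peaks, the REF6-GFP lists 2209 to 5413 and the BRM-GFP lists 1466 to 12230, with the first GFP libraries at the upper end. The H3K27me3 list of ref6 replicate 2 stood apart, with 5582 peaks of a median width of 1575 bp, and values without it are given below where it bears on a result. The lists carry no read depth, so a missing peak does not show that the mark or protein was absent. Peak scores, −10 times the base-10 logarithm of the p-value with a minimum of 50, are the authors' own and are used only to describe peaks. No label states whether replicates were grown separately, so tests across libraries measure only the spread between these samples. Since whole seedlings were used, the mark in more cells and more of it in each cell cannot be told apart. The gene table gives no strand, so "before" and "after" a gene body, the span from its annotated start to its end, refer to lower and higher coordinates.

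The 3 genes lay in different states of the mark. CUC1 carried no H3K27me3 peak in any library with REF6 and was covered nearly end to end in every library without it. CUC2 was covered over its whole body in all 8 libraries. CUC3 was partly covered in all 8, mostly over the higher-coordinate part of its body. REF6-GFP peaks lay on the body of CUC1 in 4 of 5 lists and of CUC3 in 1 of 5, and none lay within 3000 bp of CUC2.

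**Figure D1:**
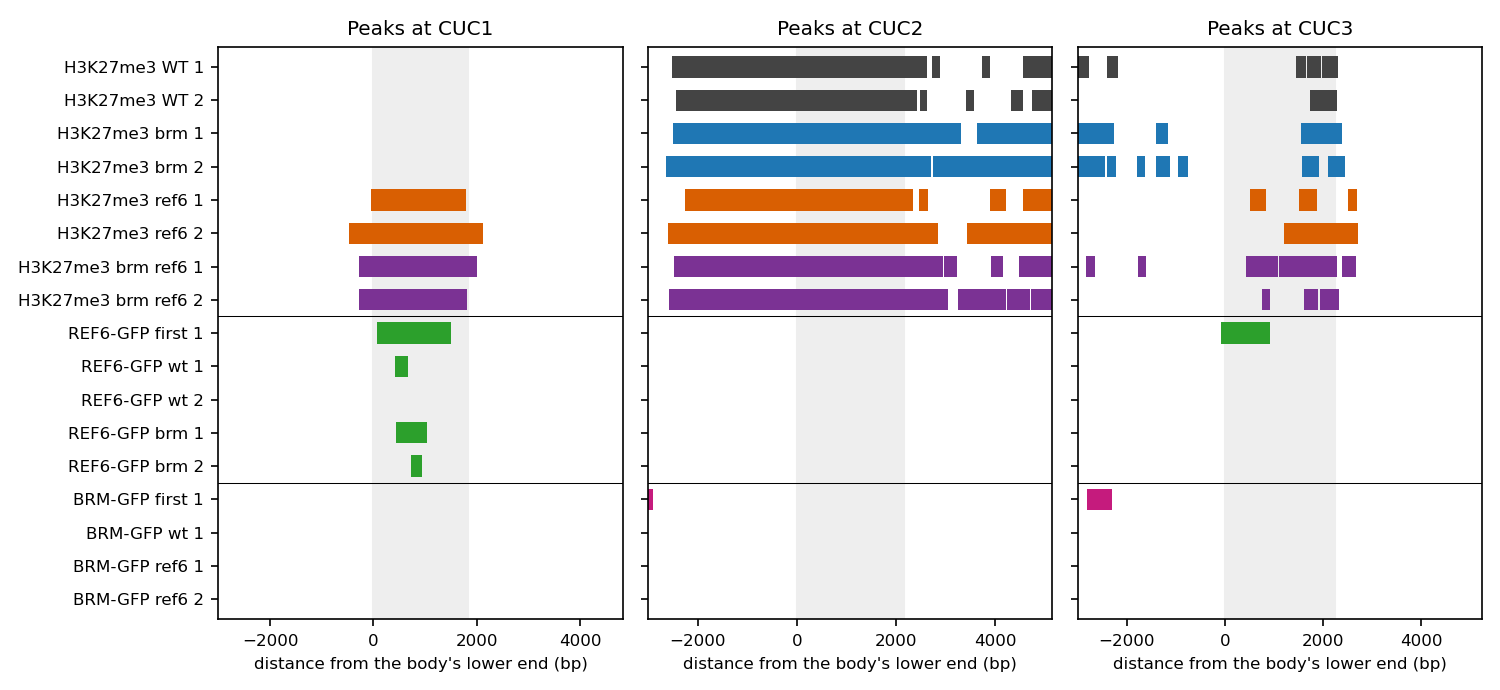
Peaks at CUC1, CUC2 and CUC3 in the 17 lists, drawn as bars against the distance in bp from the lower-coordinate end of each gene body (grey, 1827, 2151 and 2240 bp long). Each row is 1 library, grouped as H3K27me3 (upper 8), REF6-GFP (middle 5) and BRM-GFP (lower 4). At CUC1 the mark appears only in the ref6 and brm ref6 rows, over the stretch that holds the REF6-GFP peaks.

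At CUC1, H3K27me3 peaks covered 0% of the 1827 bp body in both WT libraries and 0% in both brm libraries. In ref6 they covered 98.4% in replicate 1 and 100% in replicate 2, and in brm ref6 100% and 98.8%. The 4 libraries without REF6 were therefore all above the 4 with it, with no overlap, as at 2.22% of all loci (841). Both ref6 libraries stood above both WT libraries at 3.71% of all loci, both brm ref6 libraries above both WT libraries at 6.02% and both brm ref6 libraries above both brm libraries at 3.68%. Means were 99.2% ± 1.1 (SD, n = 2) in ref6 and 99.4% ± 0.85 (SD, n = 2) in brm ref6. With 2 libraries against 2 the two-sided exact permutation test cannot go below p = 0.333, which was its value for ref6 against WT, brm ref6 against WT and brm ref6 against brm. Adjusted by the Benjamini-Hochberg method over the loci with coverage in each comparison, these exact permutation values were 1, 0.761 and 0.683.

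Set by REF6 alone, coverage of CUC1 averaged 99.3% ± 0.82 (SD, n = 4) without REF6 and 0% with it (n = 4). The exact permutation test gave p = 0.0286, two-sided, which is the smallest that 4 libraries against 4 allow. After Benjamini-Hochberg adjustment over the 8956 loci with coverage in at least 1 library the exact permutation p was 0.206, and so the difference did not pass the threshold of 0.05. None of those loci passed it, and 1244 of them (13.9%) had an unadjusted p below 0.05, 841 higher and 403 lower without REF6. Without ref6 replicate 2 the difference at CUC1 was 99.1 percentage points, with an adjusted exact permutation p of 0.157.

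Coverage of CUC1 in brm ref6 minus ref6 was 0.192 percentage points (exact permutation p = 1, two-sided), and in brm minus WT both groups were at 0. The gain without REF6 was 99.2 points in the presence of BRM and 99.4 points in its absence. With all 4 libraries without REF6 at or near 100%, body coverage had no room to show a further gain from the loss of BRM, so this measure cannot tell whether the 2 gains were alike.

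By the rule that a gene gained the mark when peaks covered at least 50% of its body in both libraries of one genotype and in neither of the other, CUC1 was the only one of the 3 called in any comparison. It gained the mark in ref6 against WT, where 1.12% of all loci did (425), in brm ref6 against WT, where 1.62% did (614), and in brm ref6 against brm, where 1.11% did (421). None of the 3 was called in brm against WT, where the share was 1.34%, or in brm ref6 against ref6, at 0.190%. None of them lost the mark, where the shares against WT were 0.372% (ref6), 0.0475% (brm) and 0.575% (brm ref6), and those of brm ref6 were 0.0818% against ref6 and 1.50% against brm. Being covered by at least 50% in all 4 libraries without REF6 and in none of the 4 with it was a property of 250 loci, or 0.660% of the total. A sharper contrast, 0% in all 4 with REF6 and at least 90% in all 4 without, was found at 25 loci (0.0660%), and CUC1 was among them. That bound was chosen after the values were seen.

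**Figure D2:**
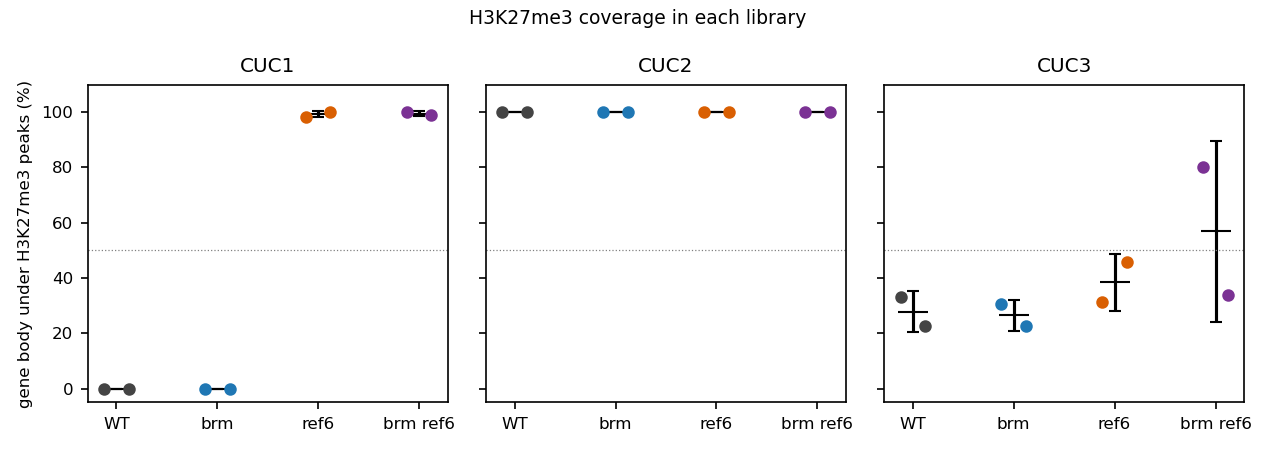
Share of each gene body under H3K27me3 peaks, in percent, in the 8 libraries. Points are libraries, horizontal bars with whiskers are the mean ± SD of the 2 libraries of a genotype, and the dotted line marks the 50% that counted as marked. CUC1 stands at 0 or near 100, CUC2 at 100 throughout, and CUC3 between 22.6 and 80.04.

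The mark at CUC1 formed 1 peak in each of the 4 libraries and kept to the gene. On chromosome 3 (TAIR10) it ran from 5109738 to 5111579 in ref6 replicate 1 and from 5109313 to 5111911 in ref6 replicate 2. In brm ref6 it ran from 5109508 to 5111781 in replicate 1 and from 5109505 to 5111586 in replicate 2. Peaks thus began 44 to 469 bp before the body and ended between 29 bp short of its end and 303 bp past it. The authors' scores were 1059 and 719 in ref6 and 2740 and 1285 in brm ref6, far above the minimum of 50. By rank within their own lists these peaks did not follow that order. They were 178 of 11925 and 509 of 5582 in ref6, and 282 of 13045 and 325 of 13079 in brm ref6.

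The genes on either side of CUC1 did not take up the mark in the same way. AT3G15160, 1272 bp before it, was at 0% in all 8 libraries. AT3G15180, only 264 bp after it, was at 0% in 7 libraries and at 0.929% in ref6 replicate 2, the library with the wide peaks. Of the 3000 bp before the body 8.87% ± 5.80 (SD, n = 4) was covered without REF6, and of the 3000 bp after it 3.97% ± 4.91 (SD, n = 4). The 4 libraries with REF6 had no coverage on either side. When the body was measured together with 1000 bp on either side, the difference between libraries without and with REF6 fell to 57.5 points and CUC1 was no longer called as gained in ref6 against WT.

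REF6-GFP peaks sat inside the CUC1 body. The first library had a peak from 5109845 to 5111287 (1443 bp, score 594). Later libraries had shorter ones inside it, from 5110197 to 5110460 in wild-type replicate 1 (score 83.4), from 5110226 to 5110823 in brm replicate 1 (score 216) and from 5110507 to 5110728 in brm replicate 2 (score 84.9). Wild-type replicate 2 had none. On the body itself a peak lay at 18.5% of all loci in the first list, 7.04% and 4.48% in the later wild-type lists and 8.48% and 4.18% in the brm lists. The peak of wild-type replicate 1 shared 235 bp with that of brm replicate 1 and 0 bp with that of brm replicate 2.

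A REF6-GFP peak within 3000 bp is common, at 38.1% of all loci in the first list, 19.0% and 13.9% in the wild-type lists and 22.3% and 12.8% in the brm lists. At CUC1 it was called in 2 of 2 brm libraries and 1 of 2 wild-type libraries, a difference of 0.5 in the share of libraries that became 0 or 1 when 1 library was left out. All 1443 bp under the first REF6-GFP peak were covered by H3K27me3 in each of the 4 libraries without REF6 and 0 bp in each of the 4 with it. No BRM-GFP peak lay within 3000 bp of CUC1 in any of the 4 lists. The background share for BRM-GFP was 52.6% in the first list, 8.78% in the later wild-type list and 10.6% and 11.1% in the ref6 lists.

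CUC2 showed the opposite state. Its 2151 bp body was covered to 100% in every one of the 8 libraries, which held for 179 loci (0.472%). Coverage of at least 50% in all 8 was found at 1734 loci (4.58%). With every library at the ceiling, body coverage had no room to show a gain, and no comparison differed from 0.

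The CUC2 peak was far wider than the gene and was a single call over the body in each library. It ran on chromosome 5 from 21899196 to 21904330 in WT replicate 1, and its width was 4577 to 5801 bp over the 8 libraries. It began 2245 to 2640 bp before the body and ended 181 to 1159 bp after it. The authors' score was 3100 in the 6 libraries of WT, brm and brm ref6, and 2840 and 1759 in ref6. Within their own lists the ref6 peaks ranked 4 and 28, and those of the other 6 libraries between 3 and 31. The 3000 bp before the body were covered to 82.3% ± 1.9 in WT and, in the mutants, to 85.5% ± 3.5 (brm), 80.6% ± 8.1 (ref6) and 84.2% ± 2.5 (brm ref6; SD, n = 2 each), values that overlapped between WT and each mutant.

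Differences between genotypes at CUC2 lay past its end. Of the 3000 bp after the body, 43.6% ± 4.0 (SD, n = 2) was covered in WT and 94.1% ± 6.8 (SD, n = 2) in brm. The 2 brm libraries were both above the 2 WT libraries (exact permutation p = 0.333, two-sided, the smallest possible). The ref6 libraries, at 61.4% ± 26.7 (SD, n = 2), overlapped WT, and the brm ref6 libraries, at 79.0% ± 18.5 (SD, n = 2), were both above it. Both brm libraries stood above both WT libraries in 15.8% of the 3000 bp flanks of protein-coding genes, and both brm ref6 libraries did in 8.52%.

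In brm this stretch was filled by peaks continuing toward AT5G53960, the next gene 3783 bp on, which was itself covered to 88.5% and 97.9% in WT and between 79.4% and 100% in the mutants. On the other side the mark stopped before AT5G53940, 3072 bp before CUC2, which was at 0% in all 8 libraries. No REF6-GFP peak lay within 3000 bp of CUC2 in 5 lists. A single BRM-GFP peak did, in the first list (21898458 to 21898796, score 59.0), 2908 bp before the body, and none of the 3 later lists had one.

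CUC3 was intermediate, and its libraries varied more. H3K27me3 covered 33.1% and 22.6% of its 2240 bp body in WT and 30.4% and 22.6% in brm. Without REF6 it covered 31.2% and 45.8% in ref6 and 80.04% and 33.7% in brm ref6. The brm ref6 libraries were both above the WT and the brm libraries (exact permutation p = 0.333 for each, two-sided), but by only 33.7% against 33.1% at the nearest. With peaks of a score of at least 100 only, brm ref6 replicate 2 was at 13.8%, below WT replicate 2 at 22.6% and both brm libraries, and the separation was lost, as it was with lists cut to equal length. Across all 8 the ranges overlapped, since ref6 replicate 1 lay below WT replicate 1, while the other 3 libraries without REF6 lay above all 4 with it.

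Mean coverage of CUC3 was 27.9% ± 7.4 (WT), 26.5% ± 5.6 (brm), 38.5% ± 10.3 (ref6) and 56.9% ± 32.8 (brm ref6; SD, n = 2 each). The 4 libraries without REF6 averaged 47.7% ± 22.5 and the 4 with it 27.2% ± 5.4, a difference of 20.5 points (exact permutation p = 0.0571, two-sided, and 0.339 after Benjamini-Hochberg adjustment over the 8956 loci). The difference did not pass the test, and without brm ref6 replicate 1 it was 9.68 points. For the 2 genotypes without BRM against the 2 with it the difference was 8.53 points (exact permutation p = 0.771, two-sided). The order of the 3 genes by body coverage differed between the libraries with and without REF6, and this order was not tested. In WT and brm it ran from CUC2 through CUC3 to CUC1, and in ref6 and brm ref6 both CUC2 and CUC1 lay above CUC3, with no overlap between the libraries of CUC1 and CUC3 in any genotype. CUC1 and CUC2 without REF6 were both at or near 100% and differed by no more than the spread between the CUC1 libraries.

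Along the CUC3 body, mean coverage with and without REF6 was close at the higher-coordinate end and differed more in the lower-coordinate parts. In the first part, libraries of both groups were at 0%. The last 746 bp of the body were covered to 80.5% ± 14.6 (SD, n = 4) with REF6 and 82.0% ± 24.2 (SD, n = 4) without it. There ref6 replicate 1, at 48.8%, lay below all 4 libraries with REF6. The middle 748 bp were covered in 1 of 4 libraries with REF6 (mean 1.20% ± 2.41) and in 4 of 4 without it (42.4% ± 37.7). The first 746 bp held no mark in 4 of 4 libraries with REF6 and held it in 2 of 4 without (31.2% in ref6 replicate 1 and 43.2% in brm ref6 replicate 1).

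The first-library REF6-GFP peak lay over this lower-coordinate part. It ran on chromosome 1 from 28671728 to 28672723 (996 bp, score 144), from 78 bp before the body into it, and none of the 4 later REF6-GFP lists had a peak within 3000 bp. H3K27me3 covered none of those 996 bp in the 4 libraries with REF6. Without REF6 it reached them in 3 of 4 libraries, to 33.5% and 0% in ref6 and 49.6% and 16.4% in brm ref6. The footprints under the first-library REF6-GFP peaks of CUC1 and CUC3 were thus free of the mark in all 4 libraries with REF6, and the mark was called in 4 of 4 libraries without REF6 at CUC1 and 3 of 4 at CUC3. At CUC3 the call in brm ref6 replicate 2 rested on 1 peak of 163 bp with a score of 54.5, near the minimum of 50. These counts are descriptions and were not tested.

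**Figure D3:**
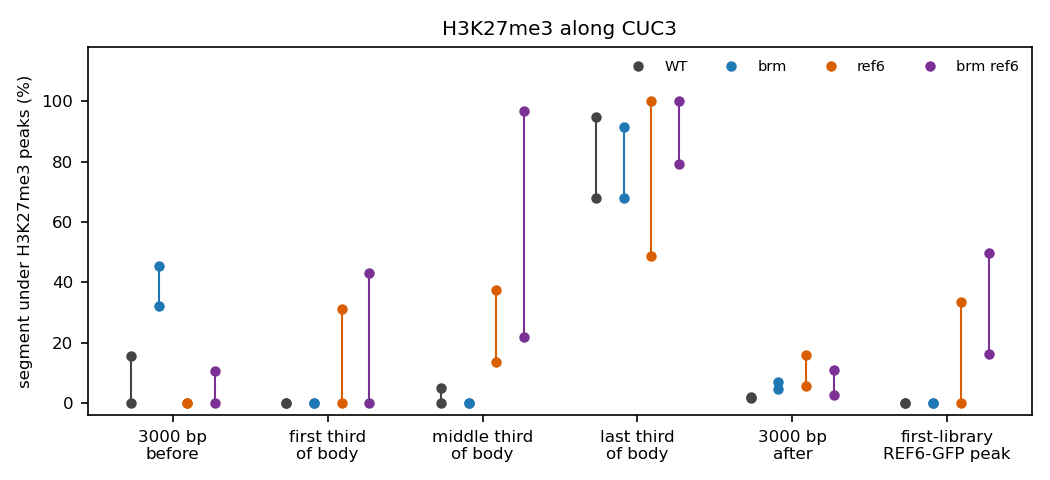
Share of 6 stretches at CUC3 under H3K27me3 peaks, in percent, for each of the 8 libraries (points, with a line joining the 2 libraries of a genotype). From left to right the stretches are the 3000 bp before the body, the body in 3 equal parts, the 3000 bp after it and the 996 bp under the first-library REF6-GFP peak. The last part of the body is covered in every library, while the part under the REF6-GFP peak is at 0 in WT and brm.

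Before the CUC3 body the brm libraries held more of the mark than the others. Of the 3000 bp before the body, brm libraries had 32.2% and 45.5% covered, against 15.6% and 0% in WT, 0% and 0% in ref6 and 10.4% and 0% in brm ref6. Both brm libraries were above both WT libraries (exact permutation p = 0.333, two-sided), as in 15.8% of flanks overall. Of the 3000 bp after the body little was covered, but both libraries of each mutant were above both WT libraries there (exact permutation p = 0.333 for each, two-sided). WT had 1.73% ± 0.33 of this stretch covered, against 5.80% ± 1.74 (brm), 10.6% ± 7.2 (ref6) and 6.65% ± 5.82 (brm ref6; SD, n = 2 each). Such a separation from WT was found in 15.8%, 4.97% and 8.52% of flanks for brm, ref6 and brm ref6. The first-library BRM-GFP peak near CUC3 lay in the 3000 bp before the body (28668996 to 28669509, score 125). It was over the body of ATL8, whose product is a RING-type ubiquitin ligase of the ATL family. Such a peak on the body was found at 27.7% of all loci. The 3 later BRM-GFP lists had no peak within 3000 bp of CUC3.

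ATL8, 2153 bp before CUC3, was covered to 61.6% and 0% in WT, 83.5% and 74.1% in brm, 0% in both ref6 libraries and 16.6% and 0% in brm ref6. It was called as having lost the mark in brm ref6 against brm, as were 1.50% of all loci. On the other side the phosphate transporter gene PHT1;9 lay 4889 bp after CUC3. It was covered to 43.8% and 49.8% in WT and 84.6% and 69.5% in brm. That was a gain by the same rule, found at 1.34% of all loci, with WT replicate 2 just under the 50% bound. Coverage of PHT1;9 was 59.0% ± 25.1 (SD, n = 2) in ref6 and 48.1% ± 11.4 (SD, n = 2) in the double mutant. The neighbours of CUC3 were thus called in comparisons in which CUC3 itself was not.

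The regulators and partners of the CUC genes were examined as 5 lists of 42 genes. Among 17 boundary transcription factor genes, 12 were covered by at least 50% in all 8 libraries, like CUC2, against 4.58% of all loci. They included LOB and LAS, whose products act in organ separation and axillary meristem formation, and PTL, a regulator of growth between sepals. ATH1, a homeobox gene, was at 0% in all 8, as were 76.4% of all loci. None of the 17 gained the mark in ref6 or brm ref6 against WT, but only 2 of them, RAX2 and ATH1, were below 50% in both WT libraries and so could have been called.

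RAX2, a MYB gene of axillary meristem formation, was the single boundary factor called in any comparison. It was covered to 34.2% and 23.8% in WT, 76.7% and 67.6% in brm, 10.8% and 0% in ref6 and 19.5% and 8.73% in brm ref6. It gained the mark in brm against WT, as 1.34% of all loci did, and lost it in brm ref6 against brm, as 1.50% did. Its 4 libraries without REF6 were all below the 4 with it, the opposite direction to CUC1. The difference was −40.8 points (exact permutation p = 0.0286, two-sided, and 0.206 after Benjamini-Hochberg adjustment). Of the 8956 loci with coverage, 403 were likewise lower without REF6 at an unadjusted exact permutation p below 0.05. A REF6-GFP peak lay within 3000 bp in the first list (score 907) and in 2 of 4 later lists, off the gene body.

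**Figure D4:**
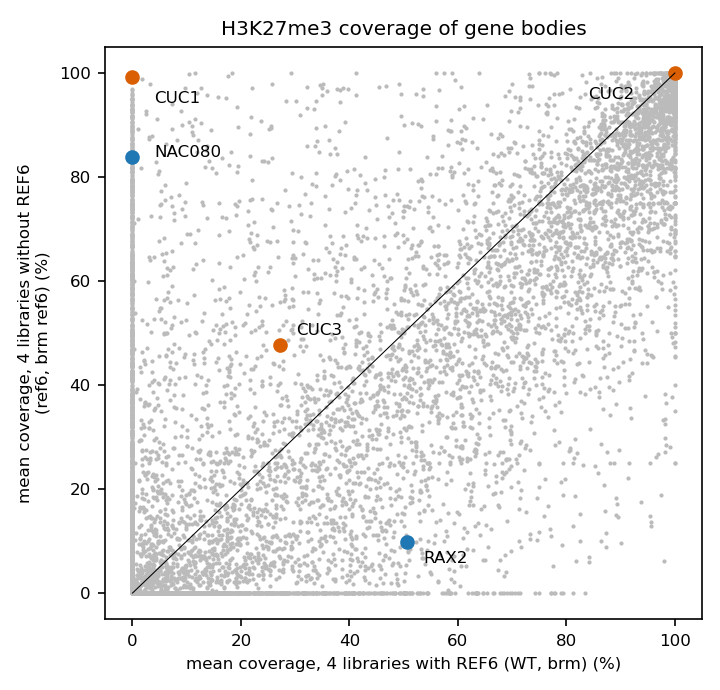
Mean H3K27me3 coverage of the gene body, in percent, over the 4 libraries without REF6 (vertical) against the 4 with it (horizontal), for the 8956 loci with coverage in at least 1 library (grey). The line marks equal values. CUC1 (0 and 99.3) lies at the upper left corner with NAC080 below it, CUC2 at the upper right, CUC3 above the line and RAX2 below it.

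Of the other 4 NAC genes that miR164 targets, NAC080 shared the CUC1 pattern. It was covered to 0% in the 4 WT and brm libraries, to 65.0% and 100% in ref6 and to 92.9% and 77.7% in brm ref6. It gained the mark in ref6 and in brm ref6 against WT and in brm ref6 against brm. The difference without REF6 was 83.9 points (exact permutation p = 0.0286, two-sided, and 0.206 after Benjamini-Hochberg adjustment). Across all loci 2.22% had all 4 libraries without REF6 above all 4 with it, and of the 42 list genes NAC080 was the only one.

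NAC080 had a REF6-GFP peak in all 5 lists (score 3100 in the first), and unlike CUC1 also BRM-GFP peaks, in the first list (score 94.5) and the later wild-type list (252). NAC100 carried REF6-GFP peaks on or near it in the same 5 lists (score 3100 in the first). It had no mark in WT and brm, but without REF6 it was covered in only 2 of 4 libraries, to 46.5% in ref6 replicate 2 and 9.73% in brm ref6 replicate 1, and it was not called. NAC1, a root development gene, and NAC6, the senescence regulator also named ORE1, were at 0% in all 8.

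The list of genes that repress CUC activity held the 3 miR164 genes, 5 TCP genes and 3 B3-domain genes. None of the 11 was covered by at least 50% in all 8 libraries. MIR164c lost the mark in ref6 against WT, as 0.372% of loci did, from 100% and 52.0% in WT to 0% in both ref6 libraries, with 100% in both brm libraries and 0% and 100% in brm ref6. Its annotated body is only 102 bp, so a single peak edge decides its value, and MIR164a (113 bp) and MIR164b (153 bp) each ranged from 0% to 100% between libraries. TCP3, TCP4, TCP10 and TCP24, growth-limiting factors of the leaf blade, were at 0% in all 8. TCP2 was at 0% in WT and ref6, at 17.3% and 0% in brm and at 68.4% and 22.3% in brm ref6.

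Of 6 meristem genes, 3 were covered by at least 50% in all 8 libraries, among them STM, the homeobox gene that maintains the shoot meristem and that CUC1 and CUC2 are needed to activate (between 88.4% and 97.7%). Of 4 genes of the auxin and organ-growth list 1 was, the cytochrome P450 gene CYP78A5, at 100% throughout. Neither list had a call, though only 1 of the 6 and 2 of the 4 were below 50% in both WT libraries and so could have gained the mark. KNAT6 of the meristem list, like RAX2, had its 4 libraries without REF6 all below the 4 with it, by 61.0% against 61.1% at the nearest. The difference was −10.1 points (exact permutation p = 0.0286, two-sided, and 0.206 after Benjamini-Hochberg adjustment). AS1, a MYB gene that represses KNOX genes in leaves, and PID and MP, a kinase and a transcription factor of auxin-guided organ initiation, were at 0% in all 8 libraries.

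The median of coverage without REF6 minus with it was −1.81 points over the boundary factors, −6.51 over the meristem genes, 0 over the repressors and the auxin genes and 7.02 over the other miR164 targets. It was −2.50 over the 8956 loci with coverage. For the 3 CUC genes the middle value was that of CUC3, 20.5 points.

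**Figure D5:**
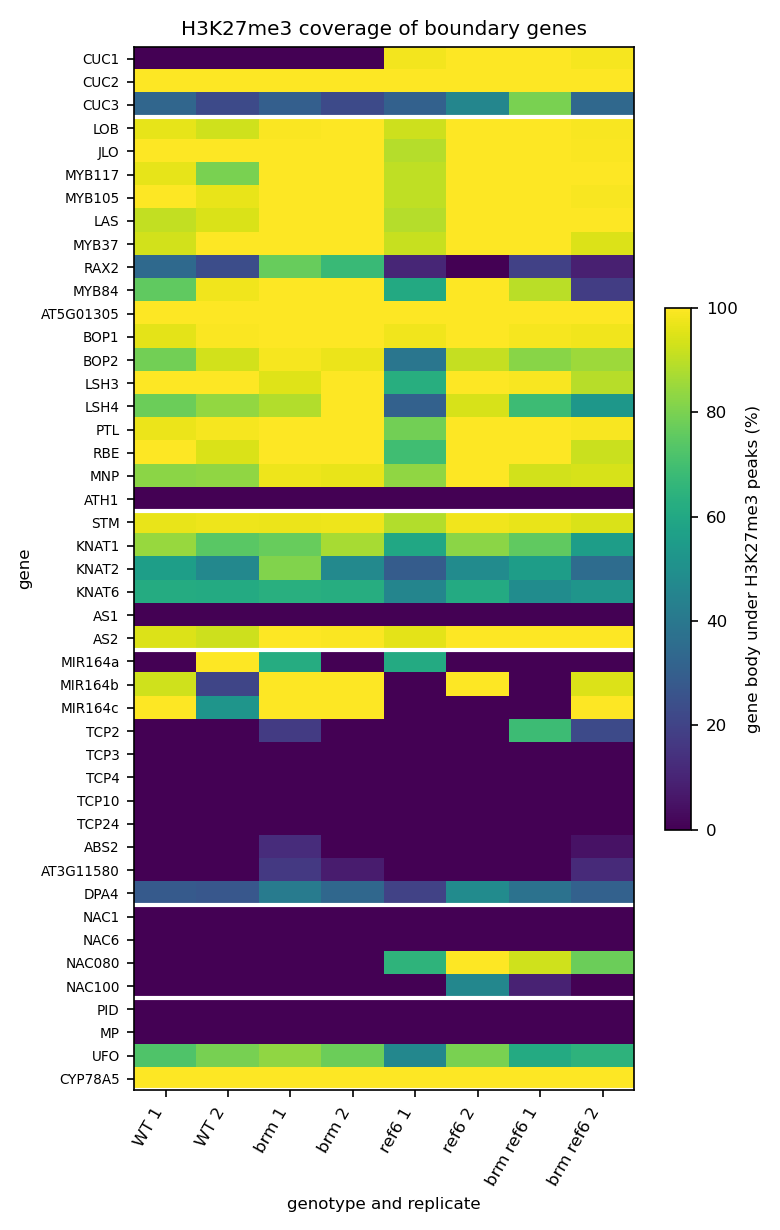
H3K27me3 coverage of the gene body, in percent (colour), for CUC1, CUC2, CUC3 and 42 genes in 5 lists (rows, separated by white lines: boundary factors, meristem genes, repressors, other miR164 targets, auxin genes) in the 8 libraries (columns). CUC1 and NAC080 are dark in the 4 libraries with REF6 and bright in the 4 without, while 12 of 17 boundary factors are bright throughout.

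Both proteins had a first-library peak within 3000 bp of 11 of the 42 genes, where 26.2% of all loci did, and among the CUC genes of CUC3 only. These were the MYB gene MYB117 (REF6 score 311, BRM score 127), BOP1 (390 and 110), MNP (60.9 and 107), MIR164b (183 and 1482), TCP2, TCP3 (3100 and 796), TCP4, TCP24, NAC6, NAC080 and MP. MYB117, BOP1 and MNP were covered by at least 79.9%, 95.9% and 82.6% in every library. These 3 genes thus had a first-library REF6-GFP peak nearby, off the body, and a high coverage in WT and brm. None of the 4 later REF6-GFP lists had a peak within 3000 bp of them. CUC1 differed from these 3 in the place of its peak, which lay on the body and was joined by peaks in 3 of 4 later lists. It had none of the mark in WT and brm. A first-library REF6-GFP peak nearby together with coverage of at least 50% in all 8 libraries was found at 1.06% of all loci. Of the list genes 8 had such a peak on the body, and their coverage ranged widely. TCP3, TCP4, TCP24 and NAC6 were at 0% in all 8 libraries, AT5G01305 of the boundary factors was at 100% in all 8, and TCP2, NAC080 and NAC100 were covered in some libraries. AT5G01305 had a first-library peak of score 833 and, like CUC1, peaks within 3000 bp in 3 of 4 later lists. An on-body REF6-GFP peak seen again in later lists was thus also found at a gene covered in WT.

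By mean absolute difference in coverage over the 8 libraries, the 5 protein-coding genes most like CUC1 were AT4G19950, AT5G56810, AT1G21866, AT3G02430 and AT3G44785, within 0.227 to 0.349 points, among 5722 genes whose coverage spanned at least 20 points. All 5 were at 0% in WT and brm, as choosing genes like CUC1 favours. A first-library REF6-GFP peak lay on the body of 4 of them (18.5% of all loci had one). None had a first-library BRM-GFP peak there (27.7% of all loci). For CUC3 the 5 were PLP5, SBT4.12, IQD25, AT4G14245 and PUM12, within 6.65 to 8.02 points. Such a REF6-GFP peak lay on the body of 3 of them and a BRM-GFP peak on that of 1. For CUC2, which spans 0 points itself, the nearest genes under the same span rule were AT2G47540, AT2G32275, CYCT1;1, AT1G23130 and AT3G10580, within 2.54 to 2.84 points. None of these 5 had either first-library peak on the body.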

How the data were processed

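The peak lists deposited by the authors hold a position and a score for every peak (−10 times the base-10 logarithm of the p-value). The submitters' processing notes name Bowtie2 2.2.5, MACS 1.4 and the TAIR10 build. Which input served as control, and with which options, is not given in the sources used here. The 10 inputs themselves were not analysed. How peaks were split or joined can change coverage.

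Coverage is the percentage of a gene body's bases under a library's peaks. The gene table belongs to TAIR10.1, so peaks were shifted against it as a check, and overlap was best without a shift on 5 of 5 chromosomes (60.1% to 63.3%, against 42.6% to 47.1% at 1000 bp). Differences in mean coverage were tested by exact permutation over libraries with Benjamini-Hochberg adjustment over loci with coverage (Python 3.11.15, numpy 2.4.6, pandas 2.3.3). The test and the calls were tested on simulated data.

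Genes named were the 3 CUC genes, their nearest protein-coding neighbours, list genes that were called or had both first-library GFP peaks, and the 5 most similar genes. Other list genes were named as examples after their values were seen. The genes and lists were chosen with earlier results of these data known. A gene of the auxin list is not reported here and is left out of the counts over lists. Replicate numbers showed little pairing of the H3K27me3 libraries (correlations of replicate differences −0.149 to 0.0787). For the 1 REF6-GFP pair of groups the correlation was 0.283. There both replicate 1 lists (3687 and 4006 peaks) were longer than both replicate 2 lists (2706 and 2209). A planned search for the REF6 sequence motif and a comparison of the CUC proteins were not run, because no sequence was at hand. Alternatives are listed at the end.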

Additional observations from a re-analysis of the deposited data

How the results depend on the processing

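The alternatives were a score of at least 100, lists cut to equal length, 1000 bp added on either side of the body, peaks at most 200 bp apart joined, permutation within the genotypes of the other factor, the replicate block and leaving out each library, with other bounds and protein-coding genes only for the counts and other distances for GFP peaks. Of 300 recomputed values 31 changed sign or moved beyond the bounds set for them. The other 269 kept their side of the test's threshold, or moved by less than the spread between replicates. Keeping that side says little, because exact permutation tests of 2 libraries against 2 cannot go below p = 0.333. No locus passed 0.05 after adjustment in the main setting either. Sizes could still change, as for CUC3 in ref6 minus WT (10.6 points, and 27.1 with lists of equal length). The REF6-GFP share at CUC1 counted as kept though its difference of 0.5 became 0 or 1. CUC1 was called as gained in ref6 against WT in 9 of 10 settings. In brm ref6 against WT and against brm it was called in 10 of 10. CUC3 was called only without brm ref6 replicate 2, where 1 library stood for that genotype.

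With 1000 bp added on either side, CUC2 was no longer at the ceiling, and its differences became 0.0602 points for ref6 minus WT, 11.0 for brm minus WT, 9.87 for brm ref6 minus WT, 9.80 for brm ref6 minus ref6, −1.13 for brm ref6 minus brm, −0.536 without REF6 and 10.4 without BRM. CUC1 then changed sign for brm ref6 minus ref6 (−1.11) and without BRM (−0.555). CUC3 in brm minus WT (−1.36) became 6.05 with scores of at least 100, 3.91 with lists of equal length, 4.41 with 1000 bp added and 1.50 with peaks joined. The cause was not tested.

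Leaving out 1 library gave −6.61 to 3.88 for CUC3 in brm minus WT, −0.602 to 0.985 for CUC1 and −4.75 to 41.6 for CUC3 in brm ref6 minus ref6, and, without BRM, −16.7 to 16.9 for CUC1 and −4.26 to 14.9 for CUC3. CUC1 without REF6 stayed between 99.1 and 99.6. Counts of gained loci were 442 to 1638 in ref6, 646 to 1087 in brm and 646 to 1396 in brm ref6. Leaving out a library relaxes the rule to 1 library of that genotype. Such counts could therefore not fall below the 425, 508 and 614 of the main setting. With any overlap they were 847 in ref6 and 1185 in brm ref6, and with 80% of the body 171 and 306.

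With the replicate block the adjusted exact permutation p for CUC1 without REF6 was 0.360. A block changes only which permutations are compared, so the difference of 99.3 points and the calls could not change. Replicate differences of ref6 and brm ref6 correlated at −0.149, and a crossed pairing was added after seeing the data. For the same reason it could change no call. The lists give no depth, so peaks near the minimum score limit what CUC3 can show.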

Other observations

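The 25 loci at 0% in the 4 libraries with REF6 and at least 90% in the 4 without it comprised 18 protein-coding genes, a set chosen after the values were seen. A first-library REF6-GFP peak lay on the body of 16 of the 25 (18.5% of all loci had one), and a BRM-GFP peak on 1 (27.7% of all loci). Beside CUC1 they included the glutaredoxin gene ROXY1, which controls petal number (at least 96.1% covered in each library without REF6), the gibberellin biosynthetic gene GA20OX2 (at least 91.7%) and the cell-wall enzyme genes XTH13 (100%) and XTH25 (at least 91.6%). XTH13 was the locus with the BRM-GFP peak.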
